A study of Homo sapiens with 9 samples.

Results

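The pentose phosphate pathway enzymes were examined in RNA-seq of MDA-MB-231 cells, an established human triple-negative breast cancer (TNBC) cell line, after treatment with 2-deoxy-D-glucose (2-DG). The 9 genes were taken by name: H6PD, PGLS and PGD of the oxidative branch, RPIA, RPE, TKT and TALDO1 of the non-oxidative branch, and PRPS1 and PRPS2, which activate ribose. They were 9 of the 61552 genes listed in each library, and all 9 were among the 16572 genes that passed the filter on low values. None of the 9 passed only through the group in which it was higher, since the lowest count of any of them in any library was 414 reads. Wild-type cells were kept in DMEM with fetal serum and received 2-DG at 10 mM or 20 mM, or phosphate-buffered saline without 2-DG (control), and RNA was collected after 24 h, with 3 libraries per group. The study asked which genes respond when glycolysis, and with it lactate output, is limited. The sources used here do not say whether the 3 libraries of a group came from separate cultures, so p-values measure only the spread between these libraries, which may be technical, and a single cell line served as the model.

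The pathway leaves glycolysis at glucose 6-phosphate. Its oxidative branch yields NADPH, the reductant used for lipid synthesis and for keeping glutathione and thioredoxin reduced, and its non-oxidative branch interconverts pentose phosphates with glycolytic intermediates in reversible steps. Ribose 5-phosphate is then converted to phosphoribosyl pyrophosphate (PRPP), the precursor of purine, pyrimidine and NAD nucleotides. Cells import 2-DG as they do glucose, and hexokinase phosphorylates it to a product that glycolysis cannot use further.

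Total reads counted on genes ranged from 30974968 to 40843638 per library, so that 1 read on a gene of 1 kb was worth 0.0245 to 0.0323 FPKM (fragments per kilobase per 1e6 reads counted). Members had between 414 and 42656 recovered reads per library. The line's markers were present, with VIM at 285 ± 28.8 FPKM (SD, n = 3) and CD44 at 69.8 ± 3.94 FPKM in the control, while the summed FPKM of the receptor genes ESR1 and PGR was at most 0.0244 in any library. Among markers of other cell types, PTPRC, CD3E and ALB were near 0, and PECAM1 was at 1.72 ± 0.259 FPKM in the control and 0.914 ± 0.119 FPKM at 20 mM. The summed level of 11 proliferation markers was 408 to 444 FPKM in the control libraries, 156 to 176 FPKM at 10 mM and 122 to 128 FPKM at 20 mM, and all 11 were lower at both doses (limma, Benjamini-Hochberg adjusted p under the threshold). The part of this shift in the results for the pathway was not tested. In bulk RNA, fewer cells of a kind and less RNA per cell cannot be told apart.

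The pathway did not move as a block. At 20 mM 2-DG, 4 of the 9 genes rose (PGLS, PGD, TKT and TALDO1) and 4 fell (RPIA, RPE, PRPS1 and PRPS2), whereas H6PD did not pass, in limma on log2(FPKM + 1) with Benjamini-Hochberg adjustment over all 16572 genes and a threshold of 0.05. Across all genes tested, 37.0% were called in this comparison, 15.4% as higher and 21.6% as lower. At 10 mM 2-DG, PGLS and PGD rose and RPE, PRPS1 and PRPS2 fell, against 29.7% of all genes called, 12.1% higher and 17.5% lower. Both comparisons used the same 3 control libraries and are therefore not independent. Before adjustment, 8 of 9 genes had p under 0.05 at 20 mM (46.0% of all genes) and 7 of 9 at 10 mM (40.4%). The members' median log2 fold change was -0.19 at 20 mM and -0.11 at 10 mM, with median absolute values of 0.31 and 0.24. Over all genes the medians were -0.02 and -0.01, with median absolute values of 0.18 and 0.16. The study's methods used DESeq2 with a log2 fold change beyond 1 in either direction and p below 0.05, unadjusted. Here only these cutoffs were taken and applied to the limma fit on log2(FPKM + 1), so the counts are not the study's. None of the 9 genes was called at either dose. Of all genes, 0.965% were called higher and 1.96% lower at 20 mM, and 0.579% and 1.16% at 10 mM.

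The genes that fell belonged to the pentose isomerase and epimerase steps and to ribose activation, and those that rose belonged to both branches. All 9 genes had no overlap between the control and the 20 mM libraries, which held for 53.3% of all genes tested, and 8 of 9, all but H6PD, had none at 10 mM (40.5% of all genes).

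**Figure D1:**
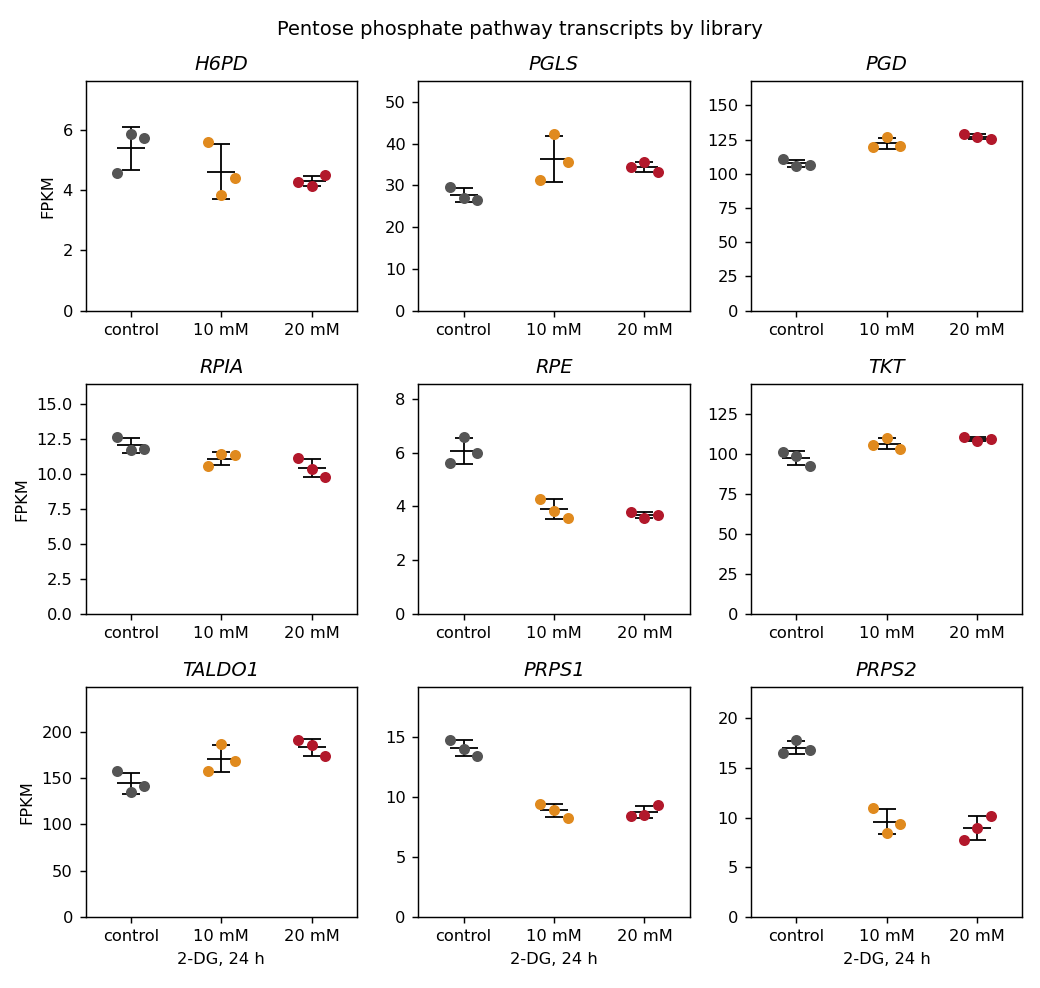
FPKM of the 9 enzymes in each library (points, 3 per group, control, 10 mM and 20 mM 2-DG) with the group means as lines and SDs as bars, on axes that start at 0. PRPS1, PRPS2 and RPE lie lower in every 2-DG library than in any control library, and TALDO1 lies between 173 and 191 FPKM at 20 mM against 135 to 157 in the control.

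The sequence just before the first exon base annotated in the promoter window (GENCODE 29) is shown for the 5 genes whose call at 20 mM held in all 19 alternative analyses at the same threshold (3 that fell and 2 that rose), because these carry the opposite movements described. Each stretch is 115 bases, 5′ to 3′ along the gene, taken from RefSeq promoters on GRCh38.p14, in which all 9 genes were matched. The stretch of PGD lies within the annotated span of the gene, whose first model starts further upstream. Capitals mark matches on either strand to 5 motifs that were searched: TGACNNNGC (antioxidant response element core), CACGTG (E-box), TGATGNAA (C/EBP-ATF element), GGGCGG (GC box) and CCAAT.
PGD, chr1:10398929-10399043, + strand: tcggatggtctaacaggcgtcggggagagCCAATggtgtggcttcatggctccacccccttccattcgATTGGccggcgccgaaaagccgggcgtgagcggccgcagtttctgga
TALDO1, chr11:747214-747328, + strand: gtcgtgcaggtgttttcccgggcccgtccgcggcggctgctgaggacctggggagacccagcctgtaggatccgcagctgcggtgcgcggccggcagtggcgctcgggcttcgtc
RPE, chr2:210002450-210002564, + strand: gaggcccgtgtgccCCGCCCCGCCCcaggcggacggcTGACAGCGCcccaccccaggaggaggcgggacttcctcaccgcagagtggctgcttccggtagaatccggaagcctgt
PRPS1, chrX:107628309-107628423, + strand: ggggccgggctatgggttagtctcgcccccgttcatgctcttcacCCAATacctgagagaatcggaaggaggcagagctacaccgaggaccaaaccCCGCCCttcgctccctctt
PRPS2, chrX:12791240-12791354, + strand: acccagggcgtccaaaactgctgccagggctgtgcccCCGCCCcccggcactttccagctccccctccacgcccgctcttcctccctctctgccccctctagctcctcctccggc
Over the full windows of 250 bases before to 50 after the gene start, the GC box was found in 8 of the 9 genes, all but H6PD, against 45.0% of 35116 RefSeq promoters. CCAAT was found in 6 of 9 (PGD, RPIA, RPE, TKT, TALDO1 and PRPS1) against 34.6%, and matches of different motifs did not overlap. The members' promoters had a median GC content of 65.3%, against 58.7% for these 35116 promoters. The antioxidant response element core was found in PGD (GCAATGTCA, on the opposite strand) and RPE (TGACAGCGC), 2 of 9 against 13.3%, and these 2 genes moved in opposite directions. The E-box (7.26% of the same 35116 promoters) and the C/EBP-ATF element (3.62%) were found in none of the 9 windows. These letters are a description and do not show that a factor binds.

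In the oxidative branch, PGD, which decarboxylates 6-phosphogluconate to ribulose 5-phosphate and forms NADPH, was the most abundant enzyme per length. On GRCh38 (GENCODE 29) it spans chr1:10398592-10420144. It was at 111, 106 and 106 FPKM in the control libraries, 119.8, 127 and 120.4 FPKM at 10 mM and 129, 127 and 126 FPKM at 20 mM. Every 2-DG library lay above every control library, and the spread within a group was small. Its level rose by 18.2% at 20 mM (108 ± 2.81 to 127 ± 1.74 FPKM, SD, n = 3), a log2 fold change of 0.24 (SE 0.05, limma with Benjamini-Hochberg adjusted p = 0.00502). At 10 mM the log2 fold change was 0.18 (limma, Benjamini-Hochberg adjusted p = 0.0224). This call was lost in 4 of the 19 alternatives, with an adjusted p of 0.0895 when only the compared groups were fitted, 0.0763 without control replicate 2, 0.0642 without control replicate 3 and 0.0524 with the replicate block.

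PGLS, the lactonase between the 2 dehydrogenase steps, spans chr19:17511629-17521288. It was at 29.5, 27.0 and 26.5 FPKM in the control, 31.3, 42.3 and 35.5 FPKM at 10 mM and 34.5, 35.5 and 33.2 FPKM at 20 mM. All 2-DG libraries were above the control, and the second 10 mM library was the highest of all 9. PGLS rose by 24.3% at 20 mM (log2 fold change 0.31, SE 0.10, limma with Benjamini-Hochberg adjusted p = 0.0317) and by 31.4% at 10 mM (log2 fold change 0.37, adjusted p = 0.0161). The call held in 13 of the 19 alternatives at 20 mM and in 17 at 10 mM. Among the losses at 20 mM, the adjusted p (limma) was 0.0577 to 0.0967 when control replicate 2 or 3 or any one 20 mM library was left out. Among those at 10 mM it was 0.0564 without control replicate 3. PGLS shares 261 exonic bases with the antisense RNA PGLS-DT, and since strand use in counting is not stated their reads cannot be told apart. PGLS-DT was listed at 0.204 to 0.802 FPKM.

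H6PD, which carries out the first oxidative steps in the lumen of the endoplasmic reticulum and spans chr1:9234775-9271337, was at 4.55, 5.85 and 5.72 FPKM in the control, 5.60, 3.82 and 4.38 FPKM at 10 mM and 4.25, 4.14 and 4.48 FPKM at 20 mM. The 20 mM libraries all lay below the control, but the lowest control library (4.55 FPKM) was close to the highest 20 mM library (4.48 FPKM). The log2 fold change was -0.26 at 20 mM (95% interval -0.54 to 0.02, limma with Benjamini-Hochberg adjusted p = 0.129) and -0.19 at 10 mM (95% interval -0.47 to 0.09, adjusted p = 0.278). The 3 oxidative enzymes summed to 140.6 ± 3.69 FPKM in the control, 163 ± 8.55 FPKM at 10 mM and 166 ± 2.24 FPKM at 20 mM, a sum set largely by PGD.

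In the non-oxidative branch, the enzymes that exchange carbon units rose at 20 mM and the enzymes that interconvert the pentose phosphates fell. TALDO1, transaldolase, on chr11:747329-765024, had the highest level per length of the 9 genes, although TKT had more recovered reads in every library. TALDO1 was at 157, 135 and 141 FPKM in the control, 157, 187 and 168 FPKM at 10 mM and 191, 186 and 173 FPKM at 20 mM. The first 10 mM library (157.5 FPKM) was only just above the first control library (157.2 FPKM), whereas the 20 mM libraries stood clear of the control. TALDO1 rose by 26.9% at 20 mM (log2 fold change 0.34, SE 0.08, limma with Benjamini-Hochberg adjusted p = 0.00893). At 10 mM the log2 fold change was 0.24 (limma, adjusted p = 0.0538), and TALDO1 passed in 6 of the 19 alternatives. Among these, the adjusted p (limma) was 0.0335 without control replicate 1 and 0.0296 without 10 mM replicate 1.

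TKT, transketolase, which moves 2-carbon units with thiamine pyrophosphate as cofactor, spans chr3:53224707-53256052 on the minus strand. It was at 101, 98.5 and 92.4 FPKM in the control, 106, 109.9 and 103 FPKM at 10 mM and 110.5, 108 and 109 FPKM at 20 mM. Neither dose overlapped the control, with narrow gaps, and the doses overlapped each other. The log2 fold change was 0.17 at 20 mM (SE 0.05, limma with Benjamini-Hochberg adjusted p = 0.0381), a rise of 12.2%, and 0.13 at 10 mM (adjusted p = 0.111). The 20 mM call held in 13 of the 19 alternatives. Among its losses, the adjusted p (limma) was 0.0759 to 0.126 when control replicate 2 or 3 or any one 20 mM library was left out. The length that turned its values into whole reads was 9502 bases (9507 exonic bases in GENCODE 29), and its FPKM, unlike its fold change, depends on the length the authors used.

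RPE, the epimerase of ribulose and xylulose 5-phosphate, on chr2:210002565-210022259, was at 5.61, 6.58 and 5.97 FPKM in the control, 4.28, 3.84 and 3.57 FPKM at 10 mM and 3.79, 3.57 and 3.67 FPKM at 20 mM. Every 2-DG library was lower than every control library. RPE fell by 39.3% at 20 mM (log2 fold change -0.59, SE 0.09, limma with Benjamini-Hochberg adjusted p = 0.000545) and fell by 35.6% at 10 mM (log2 fold change -0.53, adjusted p = 0.00147). RPE shares 837 exonic bases with KANSL1L on the opposite strand, listed at 0.535 to 0.885 FPKM. The near-copy RPEL1 reached at most 0.0401 FPKM (7 reads in all libraries), so few reads were assigned to it.

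RPIA, the isomerase of ribulose and ribose 5-phosphate, on chr2:88691644-88750935, was at 12.7, 11.7 and 11.8 FPKM in the control, 10.6, 11.4 and 11.3 FPKM at 10 mM and 11.1, 10.4 and 9.83 FPKM at 20 mM. Neither dose overlapped the control, but the nearest values of control and 10 mM, 11.7 and 11.4 FPKM, were close, and the doses overlapped each other. The log2 fold change was -0.19 at 20 mM (SE 0.07, limma with Benjamini-Hochberg adjusted p = 0.0469), where it fell by 13.3%, and -0.11 at 10 mM (adjusted p = 0.248). The 20 mM call was the least stable of the 8, as it held in 6 of the 19 alternative analyses, with log2 fold changes between -0.23 and -0.10. It was lost when control replicate 1, 2 or 3, 10 mM replicate 3 or 20 mM replicate 2 or 3 was left out (adjusted p 0.0618 to 0.169), and with median-ratio and upper-quartile scaling (adjusted p 0.201 and 0.313). The 4 non-oxidative enzymes summed to 259.9 ± 14.5 FPKM in the control, 292 ± 17.5 FPKM at 10 mM and 307 ± 10.3 FPKM at 20 mM, a sum set by TALDO1 and TKT.

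Ribose activation is carried out by the PRPP synthetases PRPS1 (chrX:107628424-107651026) and PRPS2 (chrX:12791355-12824222), and both fell. PRPS2 had the largest fall of the 9 genes at 20 mM. PRPS1 came next on log2(FPKM + 1), where the pseudocount shrinks the change of the lower gene RPE, whereas by mean FPKM RPE fell slightly more than PRPS1. PRPS2 was at 16.5, 17.8 and 16.8 FPKM in the control, 11.0, 8.44 and 9.33 FPKM at 10 mM and 7.76, 8.91 and 10.2 FPKM at 20 mM. PRPS1 was at 14.7, 14.0 and 13.4 FPKM in the control, 9.39, 8.93 and 8.26 FPKM at 10 mM and 8.43, 8.48 and 9.33 FPKM at 20 mM. For both genes the 6 2-DG libraries lay well below the control and the 2 doses overlapped. PRPS2 fell by 47.5% at 20 mM (log2 fold change -0.87, SE 0.11, limma with Benjamini-Hochberg adjusted p = 0.000196) and fell by 43.8% at 10 mM (log2 fold change -0.78, adjusted p = 0.000540). PRPS1 fell by 37.8% at 20 mM (log2 fold change -0.63, SE 0.07, limma with Benjamini-Hochberg adjusted p = 0.000110) and fell by 37.0% at 10 mM (log2 fold change -0.61, adjusted p = 0.000185). The pseudogene PRPS1P2 was listed at 0.510 to 1.15 FPKM (213 reads in all libraries), and reads shared with PRPS1 could be split between them. The 2 synthetases summed to 31.1 ± 0.774 FPKM in the control, 18.4 ± 1.67 FPKM at 10 mM and 17.7 ± 1.69 FPKM at 20 mM.

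**Figure D2:**
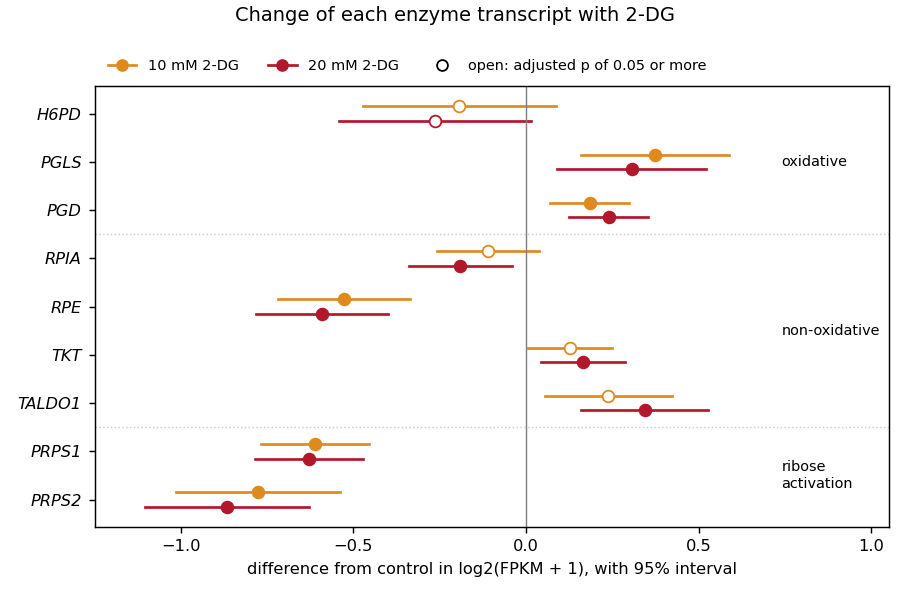
Log2 fold changes on log2(FPKM + 1) of the 9 enzymes against control at 10 mM and 20 mM 2-DG, points with 95% intervals from limma, filled where the adjusted p was under 0.05. PRPS2 (-0.87), PRPS1 (-0.63) and RPE (-0.59) lie farthest below 0 at 20 mM, and TALDO1 (0.34) farthest above.

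No difference between the doses passed the test for any of the enzymes. With 20 mM against 10 mM, 0 of the 9 genes and 0 of all genes (0%) passed limma with Benjamini-Hochberg adjustment, 0 of the 9 and 6.87% of all genes had an unadjusted p under 0.05, and all 9 members overlapped between the doses (11.9% of all genes did not overlap). By the study's cutoffs on the limma fit, 0.00603% of all genes were called higher. The log2 differences ranged from -0.09 for PRPS2 (95% interval -0.33 to 0.15) to 0.11 for TALDO1 (95% interval -0.08 to 0.29). The interval for H6PD ran from -0.35 to 0.21 and that for PGD from -0.06 to 0.17. Differences between the doses within these intervals were therefore not excluded.

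In the control, the order of levels per length was TALDO1, PGD, TKT, PGLS, PRPS2, PRPS1, RPIA, RPE and H6PD. The libraries of RPE and H6PD overlapped in the control. At 20 mM H6PD (4.14 to 4.48 FPKM) lay above RPE (3.57 to 3.79 FPKM), and PRPS2, PRPS1 and RPIA no longer kept the control order, with RPIA at 9.83 to 11.1 FPKM and PRPS2 at 7.76 to 10.2 FPKM. Ratios between pairs of members were compared between the 6 2-DG and the 3 control libraries with an exact two-sided permutation test (84 splits, smallest possible p = 0.0119). The log2 ratio of PRPS2 to PRPS1 differed by -0.21 (exact permutation p = 0.0833, adjusted over 3 ratios 0.0833). The log2 ratio of TALDO1 to TKT differed by 0.15 (exact permutation p = 0.0595, adjusted 0.0833), and that of H6PD to PGD by -0.49 (exact permutation p = 0.0238, adjusted 0.0714). None of the 3 passed 0.05 after adjustment.

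Neighbouring genes of the pathway were described by fixed lists. Across all genes tested, 37.0% were called at 20 mM (15.4% higher, 21.6% lower) and 29.7% at 10 mM (12.1% higher, 17.5% lower). The counts for each list are to be read beside these shares. Of 12 accessory pentose phosphate genes, 8 could be tested, and at 20 mM 1 rose and 2 fell (median log2 fold change -0.15). TIGAR, a phosphatase that lowers fructose 2,6-bisphosphate, rose from 0.202 ± 0.0732 to 0.385 ± 0.0347 FPKM. RBKS, ribokinase, fell from 1.20 ± 0.186 to 0.609 ± 0.0413 FPKM, and DERA, deoxyribose-phosphate aldolase, from 9.43 ± 1.46 to 5.95 ± 0.372 FPKM. At 10 mM none rose and 2 fell. The transketolase-like TKTL1 and TKTL2, RPEL1 and PRPS1L1 had too few reads to test.

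Of the other sources of NADPH, 10 of 11 genes were tested, and 4 rose and 4 fell at 20 mM (median log2 fold change -0.09), with the same counts at 10 mM. The shares over all genes were 15.4% higher and 21.6% lower at 20 mM, and 12.1% and 17.5% at 10 mM. MTHFD2, a mitochondrial folate dehydrogenase, rose from 2.57 ± 0.0933 to 4.78 ± 0.216 FPKM, and ME1, ME3 and IDH1 rose as well. IDH2, the mitochondrial NADP isocitrate dehydrogenase, fell from 7.93 ± 0.577 to 3.40 ± 0.409 FPKM (log2 fold change -1.02, limma, Benjamini-Hochberg adjusted p = 2.58e-05), and MTHFD1, NNT and NADK fell too. Of 8 NADPH-using reductases and NRF2 targets, 6 rose and 0 fell at 20 mM (median log2 fold change 0.48) and 5 rose at 10 mM. Among the reductases, NQO1 rose at both doses. TXNRD1 passed only at 20 mM (limma, Benjamini-Hochberg adjusted p = 0.0449, against 0.196 at 10 mM). GSR (log2 fold change 0.25 at 20 mM, limma, adjusted p = 0.0987) and TXNRD2 (-0.13, adjusted p = 0.400) passed at neither dose. HMOX1, heme oxygenase, rose from 15.3 ± 0.943 to 34.7 ± 4.93 FPKM, and GCLC, the catalytic subunit of glutamate-cysteine ligase, from 3.25 ± 0.363 to 6.88 ± 0.0677 FPKM.

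At the branch point and in upper glycolysis, 2 of 11 genes rose and 6 fell at 20 mM (median log2 fold change -0.16), and 0 rose and 6 fell at 10 mM. Of all genes tested, 15.4% were called higher and 21.6% lower at 20 mM, and 12.1% and 17.5% at 10 mM. HK1 rose from 79.0 ± 2.15 to 91.0 ± 1.86 FPKM, while HK2, the inducible hexokinase, fell from 22.6 ± 3.13 to 13.7 ± 0.213 FPKM. Of the PRPP-using transferases, 6 of 7 were tested and 3 fell at 20 mM (median log2 fold change -0.27) and 2 at 10 mM. HPRT1, which salvages hypoxanthine and guanine with PRPP, fell from 18.6 ± 1.64 to 8.35 ± 0.147 FPKM (log2 fold change -1.06, limma, Benjamini-Hochberg adjusted p = 1.10e-05), and PPAT, the first enzyme of purine synthesis, was at 3.28 ± 0.682 and 2.22 ± 0.176 FPKM (adjusted p = 0.0795).

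**Figure D3:**
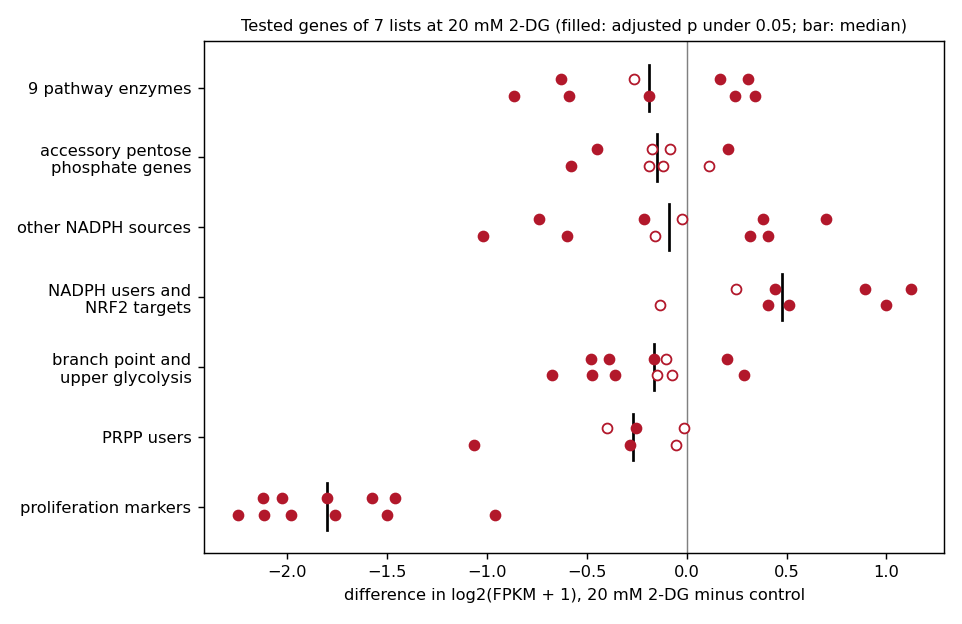
Log2 fold changes on log2(FPKM + 1) of the genes of each list at 20 mM 2-DG against control, a point per gene, filled where the adjusted p was under 0.05, with a bar at the median of each list. The proliferation markers lie lowest (median -1.80), and the NADPH-using reductases and NRF2 targets lie mostly above 0 (median 0.48).

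The genes with the pattern most like TALDO1, the largest rise, among 5852 protein-coding genes with a mean of at least 5 FPKM, were TNFRSF12A, RPS13 and DGAT1 (root mean square difference over 9 libraries 0.0300, 0.0381 and 0.0441 on log2(FPKM + 1) after subtraction of the control mean). Those most like PRPS2, the largest fall, were CNN3, SELENON and SORT1 (0.0817, 0.0820 and 0.0958). The genes like PRPS2 were less close to it than those like TALDO1 were to TALDO1.

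**Figure D4:**
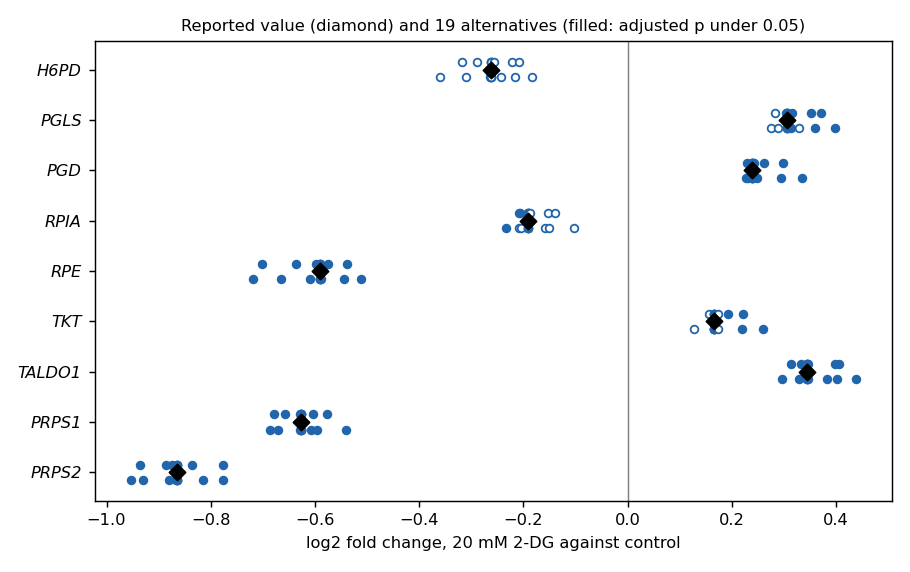
Log2 fold changes of the 9 enzymes at 20 mM 2-DG against control under the reported analysis (diamonds) and the 19 alternatives at the same threshold (circles, filled where the adjusted p was under 0.05). PGD, TALDO1, RPE, PRPS1 and PRPS2 were called in all 19, PGLS and TKT in 13, RPIA in 6 and H6PD in 0.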

How the data were processed

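RNA-seq was performed on 9 libraries. The authors isolated RNA (Qiagen), sequenced it on an Illumina instrument and deposited FPKM values, 1 file per library, on GRCh38 per the labels. The aligner, counting tool, annotation release and use of strand are not given in the sources used here. Whole reads, to within the rounding of the deposited digits, were recovered from FPKM with the GENCODE 29 exon length for 15942 of the 32806 genes above 0. For the others, 8 of the 9 members included, the smallest length that made every library whole was searched, which largely fixes that a length is found and cannot show a factor common to reads and length. Totals were 30974968 to 40843638 per library. The reads were used for the filter (10 or more reads, scaled to median depth, in 3 or more libraries, and 15 or more in total, 16572 genes) and for limma-voom as an alternative. They are not the authors' counts. limma 3.58.1 in R 4.3.3 was fitted to log2(FPKM + 1) with all 9 libraries, contrasts and eBayes with a trend, and p-values were adjusted by Benjamini-Hochberg. The pseudocount of 1 understates changes of low genes. The steps were tested on simulated data. Ratios used exact permutation tests. Named genes were the 9 members, genes of the lists described, copies and overlapping neighbours of members, and the 3 genes most like the largest rise and fall. The members and lists were chosen with earlier results of these data known. Alternatives varied the pseudocount, filter, scaling, variance trend, samples in the fit, replicate block, test, threshold and each library. No pairing of the libraries by replicate number was seen, though the check could not exclude it. Lactate-treated cells were not analysed here, and a marker on the list of other cell types is not reported here.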

Additional observations from a re-analysis of the deposited data

How the results depend on the processing

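No called member changed sign in any alternative. At 20 mM 2-DG the calls of PGD, TALDO1, RPE, PRPS1 and PRPS2 held in all 19 alternatives at the adjusted p threshold of 0.05, and at 10 mM those of RPE, PRPS1 and PRPS2. Leaving out 1 library at a time gave 5 to 8 members called at 20 mM (2 to 4 higher, 3 to 4 lower), 3 to 6 at 10 mM (0 to 3 higher, 3 lower) and 0 between doses. Over all genes it gave 4695 to 6602 calls at 20 mM (1904 to 2799 higher, 2752 to 3803 lower), 3931 to 4886 at 10 mM (1505 to 2043 higher, 2343 to 2843 lower) and 0 to 4 between doses (0 to 1 higher, 0 to 3 lower). Log2 ratio differences then ranged from -0.27 to -0.18 for PRPS2 to PRPS1, 0.089 to 0.18 for TALDO1 to TKT and -0.63 to -0.41 for H6PD to PGD, and the last 2 passed after adjustment (0.0268 each, exact permutation) only without 10 mM replicate 1. The study's cutoffs (log2 fold change beyond 1 in either direction with p below 0.05, unadjusted) were applied to the limma fit, not to DESeq2. By these, 0 members were called at either dose. Over all genes, 484 (160 higher, 324 lower) were called at 20 mM, 288 (96 higher, 192 lower) at 10 mM and 1 (higher) between doses. Members called higher at 10 mM numbered 4 with upper-quartile scaling and 1 with all genes above 0, with only the compared groups, and with the replicate block. With all genes above 0, 3 genes were called between doses, all 3 lower. Same-numbered libraries of 2 groups correlated between -0.41 and 0.29 in their deviations from group means. No pairing by number was seen, but so few libraries cannot exclude it. The replicate block gave 6 members called at 20 mM (3 higher, 3 lower) and 4 at 10 mM, and RPIA (adjusted p = 0.0798) and TKT (0.0624) at 20 mM and PGD at 10 mM (0.0524) lost their calls (limma). The cause of these changes was not tested. The shares of all genes called under the same settings are not given beside these member counts. The counts therefore cannot show whether a change was particular to the members. For RPE, counting error at the lowest recovered count was larger than the spread between libraries at 20 mM, but not in the other groups. This counting error was 4.91% for RPE (414 reads, at 20 mM) beside a coefficient of variation of 2.99% at 20 mM. That coefficient was 8.12% in the control and 9.24% at 10 mM. For RPIA the counting error was 4.12% (589 reads, at 20 mM) beside 6.33% at 20 mM. For TALDO1 it was 0.843% (14085 reads, in the control) beside 7.93% in the control.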
